A study of Mus musculus with 18 samples.

Results

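Livers taken 72 h after 2/3 partial hepatectomy were compared with livers of sham-operated mice, across all genes. The comparison rests on 4 of the 18 libraries of the series, 2 from livers at 72 h and 2 from sham livers. All mice were C57BL/6, and each library was made from liver RNA of 3 mice pooled together, so that each group stands for 6 mice. Sex and age are not given in the labels, and neither is the time at which sham livers were taken, so the time of day and the hours since surgery cannot be matched between the groups. The 2 pools at 48 h and the 2 pools at 120 h after hepatectomy, of the same strain, operation and pooling, served to place the 72 h livers in time. Each p-value below measures the spread between pools, not between single mice.

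After partial hepatectomy the lobes left in place grow until the liver has regained its mass. Mature hepatocytes leave quiescence, copy their DNA and divide, and sinusoidal endothelial cells, stellate cells and bile duct cells follow. During this time the same hepatocytes go on with the metabolic and secretory work of the organ, and genes for division and genes for mature liver function are known to move in opposite directions. Lipid passes through the regenerating hepatocytes as fuel and as membrane material.

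The 72 h pools held 8.83 and 8.54 M gene-assigned reads (M, mega), against 7.78 and 8.01 M in the sham pools, and the 18 libraries ranged between 7.78 and 9.16 M. Levels are given as counts-per-million (CPM) scaled by trimmed-mean (TMM) factors. The table of sham replicate 2 ends at a count of 52 reads, so a gene absent from it is unknown below 6.55 CPM and not 0. Genes were therefore tested in 2 ways with edgeR's quasi-likelihood test: 8026 genes listed in both sham pools were tested against both of them, and 12199 genes of the complete tables were tested against sham replicate 1 alone, whose spread was assumed to be like that of the other groups. The complete tables cover the genes that were scarce in sham liver, and a rise there was also set against the bound of sham replicate 2. The hepatocyte markers of the labelled tissue were abundant in every library, with summed levels of 176000 and 152200 CPM in the 72 h pools and 136100 and 142900 CPM in the sham pools. Albumin alone took 13.5% and 12.5% of reads at 72 h, against 9.28% and 9.1% in sham liver, a change that did not pass (log2 change 0.39 ± 0.19, edgeR adjusted p = 0.208).

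With both sham pools, 401 genes were higher and 370 lower at 72 h at a false discovery rate of 0.05, which is 5% and 4.61% of the genes tested (9.61% together). The complete tables gave 309 higher and 157 lower genes, 2.53% and 1.29% of those tested (3.82% together), and 243 of the 309 rises (1.99% of genes tested) lay above the value or bound of sham replicate 2 in both 72 h pools. All 256 genes called in both tests had the same direction in both. The median change over all genes was -0.04 on the log2 scale with both sham pools and 0.00 in the complete tables. Scaling by library totals alone moved these medians to 0.08 and 0.1 and turned the first count into 642 higher and 231 lower genes. In all 771 called genes the 72 h pools lay on the same side of both sham pools, as they did in 59.8% of all genes tested. The 72 h pools were not alike: replicate 2 lay farther from sham than replicate 1 in 321 of the 401 risen genes and 305 of the 370 fallen ones. The counts with both sham pools were 81 and 50 without 72 h replicate 2, and without replicate 1 they were 329 and 309. They were 95 and 109 without sham replicate 1 and 119 and 124 without sham replicate 2.

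Genes of mitosis gave some of the largest rises. Of 41 genes for the spindle, the kinetochore and cytokinesis, all were measured and 34 were higher at 72 h: 32 in the complete tables, where the median change of the 41 was 3.23 on the log2 scale against 0.00 for all genes, and Bub3 and Smc4 with both sham pools. None was lower. Of the 32, 29 lay above the bound of sham replicate 2 in both 72 h pools. In bulk liver more dividing cells and more of these mRNAs per cell cannot be told apart.

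Prc1, which bundles the microtubules of the central spindle, had 31.8 and 53.2 CPM in the 72 h pools, against 1.498 CPM in sham replicate 1 (GRCm38 chr7:80294445-80316259; log2 change 4.79 ± 0.71 SE, edgeR adjusted p = 0.00457). Tpx2, a spindle assembly factor that activates the Aurora A kinase, had 35.2 and 67.5 CPM at 72 h, against 2.12 CPM in sham replicate 1 (4.57 ± 0.70, adjusted p = 0.00539). Cdc20, the activator of the anaphase-promoting complex, had 46.8 and 89.1 CPM at 72 h, against 2.87 CPM in sham replicate 1 (4.54 ± 0.83, adjusted p = 0.0101). The rule that named these genes required both 72 h pools on one side of sham. Both stood far above sham replicate 1 and above the bound of sham replicate 2. Replicate 2 was the higher of the 72 h pools in each gene. Plk1, the Polo kinase that acts through mitosis (chr7:122159435-122169884), had 25.9 and 50.3 CPM, against 1.87 CPM in sham replicate 1 (4.31 ± 0.67, adjusted p = 0.00539). Ccnb2, Cdca3 and Kif22 also act in mitosis but are outside this list. They were named for being among the largest rises in the complete tables. Their rises are therefore no separate evidence for the rise of the list. Ccnb2, a mitotic cyclin, had 18.2 and 30.9 CPM, against 1.25 CPM (4.26 ± 0.81, adjusted p = 0.0119). Cdca3, which helps to degrade an inhibitor of mitotic entry, had 35.9 and 70.1 CPM, against 3.00 CPM (4.12 ± 0.74, adjusted p = 0.00981). The chromosomal kinesin Kif22 had 16.6 and 30.6 CPM, against 1.37 CPM (4.07 ± 0.66, adjusted p = 0.00669). The 7 genes from Prc1 to Kif22 had between 10 and 24 reads in sham replicate 1, so the sham end of each change is the less precise one. Within the list, the topoisomerase Top2a (3.53), the chromosomal passenger protein Incenp (3.10) and the centralspindlin subunit Racgap1 (3.81) also rose. All 41 members were higher in 72 h replicate 2 than in replicate 1, with a median difference of 0.86 on the log2 scale, against 58% of all genes and a median of 0.07. With 72 h replicate 2 left out, 7 of the 41 passed, and 38 had an unadjusted p under 0.05. Prc1, Tpx2 and Plk1 were among those that passed without it (adjusted p = 0.0359, 0.0434 and 0.0434), and Cdc20, Ccnb2, Cdca3 and Kif22 were not (0.066, 0.0752, 0.0643 and 0.0517). Exons of Prc1 overlap those of Rccd1 and exons of Cdc20 those of Elovl1 on the opposite strand, and reads there cannot be told apart because the counting is not stated to use strand.

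**Figure D1:**
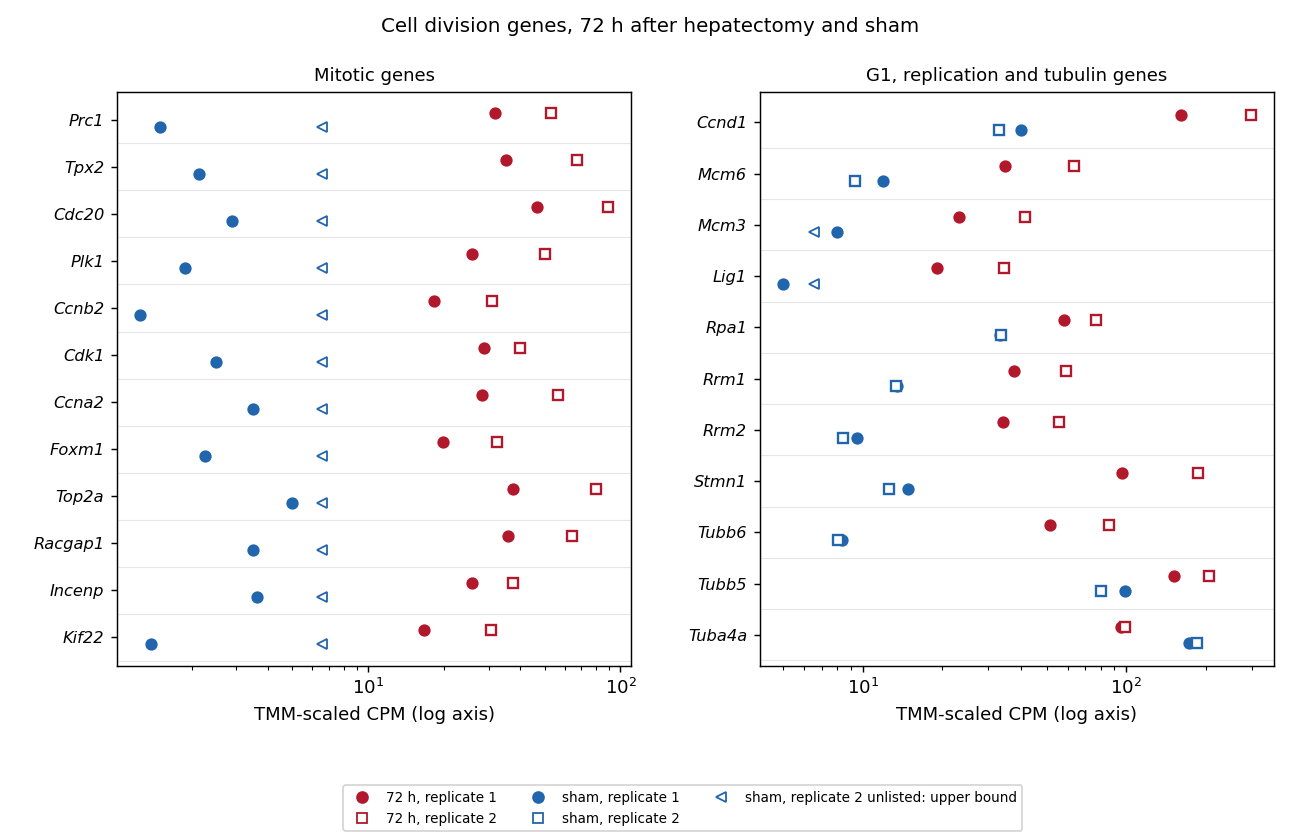
Levels of cell division genes in each pool, in TMM-scaled CPM on a log axis. Red marks are the 72 h pools and blue marks the sham pools, with filled circles for replicate 1 and open squares for replicate 2. A blue triangle marks the upper bound of 6.55 CPM where a gene is unlisted in sham replicate 2. In the left panel both 72 h pools lie above sham replicate 1 and above the bound for every gene, and in the right panel Tuba4a is the only gene with the sham pools above the 72 h pools.

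Promoters of genes that peak in mitosis are known for a pair of short elements near the start site, the cell cycle genes homology region and the CCAAT box. RefSeq promoters (GRCm38.p6, 250 bases before to 50 after the start) were at hand for 36 of the 41 genes. The letters TTTGAA, on either strand, stood in 27 of the 36 (75%), against 12.1% of the promoters of 9756 tested genes. CCAAT, on either strand, also stood in 27 of the 36 (75%), against 39.3% of those promoters. A match describes the letters in this window and not a bound factor. Prc1 and Plk1 are shown because they are among the largest rises, and Racgap1 because it carries the CCAAT letters on the other strand, written ATTGG. Capitals mark matches to TTTGAA and CCAAT, and each sequence reads from 5' to 3' on the gene's strand. The Prc1 promoter is chr7:80294201-80294500 on the plus strand, that of Plk1 chr7:122159185-122159484 on the plus strand and that of Racgap1 chr15:99651607-99651906 on the minus strand.
Prc1: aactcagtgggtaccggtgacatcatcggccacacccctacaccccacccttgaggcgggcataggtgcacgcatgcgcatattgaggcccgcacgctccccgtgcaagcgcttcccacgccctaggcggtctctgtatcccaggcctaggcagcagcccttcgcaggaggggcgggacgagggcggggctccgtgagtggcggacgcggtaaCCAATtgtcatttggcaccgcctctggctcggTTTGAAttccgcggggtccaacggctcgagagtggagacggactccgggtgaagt
Plk1: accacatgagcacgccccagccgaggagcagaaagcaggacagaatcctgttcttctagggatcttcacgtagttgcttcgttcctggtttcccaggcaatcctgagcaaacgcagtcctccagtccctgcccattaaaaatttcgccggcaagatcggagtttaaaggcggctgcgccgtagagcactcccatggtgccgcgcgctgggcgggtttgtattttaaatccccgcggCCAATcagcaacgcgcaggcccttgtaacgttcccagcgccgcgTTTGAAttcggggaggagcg
Racgap1: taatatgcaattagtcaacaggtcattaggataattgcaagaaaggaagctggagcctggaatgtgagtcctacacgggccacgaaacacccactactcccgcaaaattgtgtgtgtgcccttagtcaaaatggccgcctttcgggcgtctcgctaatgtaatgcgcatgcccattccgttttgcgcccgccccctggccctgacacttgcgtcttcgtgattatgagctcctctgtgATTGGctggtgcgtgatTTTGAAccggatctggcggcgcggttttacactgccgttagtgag

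Genes that act ahead of mitosis rose as well. Ccnd1, the G1 cyclin that carries growth signals into the cycle (chr7:144929931-144939831), had 161 and 296 CPM at 72 h, against 39.7 and 32.8 CPM in the sham pools (log2 change 2.66 ± 0.28, adjusted p = 0.000296). Both 72 h pools stood above both sham pools, as in all genes called higher against both, and the call held without any of the 4 libraries. Of 27 cyclins, cyclin-dependent kinases and their regulators, 13 rose and none fell, 4 with both sham pools and 9 in the complete tables, 7 of the 9 above the bound. Cdk1, the kinase that drives entry into mitosis, had 28.8 and 39.9 CPM at 72 h, against 2.50 CPM in sham replicate 1 (3.76 ± 0.53, adjusted p = 0.00429). Foxm1, a transcription factor of G2 and M phase genes, had 19.7 and 32.5 CPM, against 2.25 CPM (3.51 ± 0.55, adjusted p = 0.00574), and Ccna2, the cyclin of S and G2 phase, had 28.2 and 56.7 CPM, against 3.50 CPM (3.58 ± 0.60, adjusted p = 0.00754). Ccna2 lost its call without 72 h replicate 2 (adjusted p = 0.054), while Cdk1 and Foxm1 kept theirs (0.0326 and 0.0481).

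Of 39 genes for replication licensing and the replication fork, 37 passed the filter on low counts and 15 rose, 7 of 10 with both sham pools (median 0.77) and 8 of the 27 others in the complete tables, 7 of the 8 above the bound. None fell. Mcm6, a subunit of the replicative helicase, had 34.6 and 63.4 CPM at 72 h, against 11.98 and 9.32 CPM in sham liver (2.20 ± 0.30, adjusted p = 0.000961). Rpa1, the large subunit of the single-strand binding complex, had 58.2 and 76.5 CPM, against 33.1 and 33.4 CPM (1.02 ± 0.18, adjusted p = 0.00374). Lig1, which joins Okazaki fragments, had 19.2 and 34.2 CPM, against 4.99 CPM in sham replicate 1 (2.40 ± 0.36, adjusted p = 0.00532). The pools did not overlap in any of these genes, as in all genes called with both sham pools. Among 18 genes for nucleotide supply, 12 were tested with both sham pools and 4 rose, among them both main subunits of ribonucleotide reductase, which makes deoxyribonucleotides: Rrm1 (1.85 ± 0.25, adjusted p = 0.000957) and Rrm2 (2.32 ± 0.43, adjusted p = 0.00625). Their levels were 37.5 and 59.2 CPM for Rrm1 at 72 h, against 13.5 and 13.3 CPM in sham liver, and 34.1 and 55.6 CPM for Rrm2 at 72 h, against 9.49 and 8.44 CPM. Of the 37 replication genes, 10 passed in the complete tables, and 1 passed without 72 h replicate 2, where 18 had an unadjusted p under 0.05. The letters TTTNNCGC, the core of sites for E2F factors, stood on either strand in 13 of 32 replication promoters (40.6%), against 8.6% of tested genes' promoters. The Mcm6 promoter is shown because it holds this motif more than once, with overlapping matches on both strands in the first stretch of capitals (GRCm38.p6, chr1:128359656-128359955, minus strand).
Mcm6: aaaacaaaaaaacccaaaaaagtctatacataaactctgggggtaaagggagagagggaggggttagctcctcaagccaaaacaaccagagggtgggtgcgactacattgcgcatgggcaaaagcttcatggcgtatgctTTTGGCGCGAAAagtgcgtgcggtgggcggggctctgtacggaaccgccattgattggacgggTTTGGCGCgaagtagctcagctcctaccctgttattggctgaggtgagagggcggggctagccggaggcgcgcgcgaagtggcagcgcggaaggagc

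Tubulin genes did not move as a block. Of 10 tubulin and stathmin genes that passed the filter, 6 rose and 1 fell. Stmn1, a microtubule-destabilising protein of dividing cells, had 96.6 and 187 CPM at 72 h, against 14.9 and 12.6 CPM in sham liver (3.36 ± 0.36, adjusted p = 0.000296). Tubb6 had 51.5 and 85.7 CPM, against 8.36 and 8.06 CPM (3.06 ± 0.47, adjusted p = 0.00197), and Tubb5 had 152 and 206 CPM, against 98.5 and 80.0 CPM (1.01 ± 0.16, adjusted p = 0.00212). Tuba4a, an alpha-tubulin isotype, had 95.8 and 99.2 CPM at 72 h, against 173 and 185 CPM in sham liver (-0.88 ± 0.11, adjusted p = 0.000648). These 4 calls held without any of the 4 libraries. Reads are hard to divide between tubulin isotypes of near-identical sequence, so the split among them is uncertain. Of 18 cyclin-dependent kinase inhibitors and p53 targets that passed the filter, 4 rose and 1 fell. Of these, 12 were tested with both sham pools, and 1 rose and 1 fell, against 5% and 4.61% of all genes. The one that fell was Gdf15, a secreted stress signal, which had 3.56 and 4.10 CPM at 72 h, against 21.1 and 24.7 CPM in sham liver (-2.57 ± 0.29, adjusted p = 0.00035). Cdkn1a, the p21 inhibitor, had 73.8 and 142 CPM at 72 h, against 44.6 and 92.7 CPM in sham liver, with overlapping pools (0.65 ± 0.33, adjusted p = 0.226).

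Placed in time, the mitotic genes stood between their levels at 48 h and at 120 h. The summed level of the 41 mitotic genes was 164 CPM in sham replicate 1, 2097 and 2345 CPM at 48 h, 803 and 1510 CPM at 72 h, and 420 and 204 CPM at 120 h, and 39 of the 41 had their highest mean at 48 h. None of the 41 differed between 72 h and 48 h in edgeR at a false discovery rate of 0.05, a comparison in which 0.656% of 12199 genes did (52 higher and 28 lower); their median change was -0.81 on the log2 scale, against 0.01 for all genes. By DESeq2, 5 of the 41 were lower than at 48 h and by limma-trend 0, and 21 were lower with an unadjusted p under 0.05 in edgeR. Tubulins did pass: Tubb4b had 203 and 291 CPM at 72 h, against 558 and 614 CPM at 48 h (-1.26 ± 0.18, adjusted p = 0.0132), and Tubb5, Tuba1c and Tuba4a were lower as well (-0.84, -1.25 and -0.61). Against 120 h, where 1.11% of genes differed (88 higher and 48 lower), 23 of the 41 mitotic genes were higher at 72 h, with a median of 2.01 against -0.01 for all genes. Plk1 had 25.9 and 50.3 CPM at 72 h, against 10.8 and 4.26 CPM at 120 h (2.31 ± 0.41, adjusted p = 0.0309). Ccnd1 had 161 and 296 CPM at 72 h, against 297 and 190 CPM at 48 h, with overlapping pools (-0.11 ± 0.25, adjusted p = 0.875). Both comparisons lean on single pools: without 48 h replicate 2 no gene differed between 72 h and 48 h (504 higher and 535 lower at an unadjusted p under 0.05), and with either 72 h replicate 2 or 120 h replicate 2 left out, none differed between 72 h and 120 h (388 higher and 489 lower, and 543 higher and 428 lower, at an unadjusted p under 0.05). In those fits 35 and 36 of the mitotic genes were higher than at 120 h at an unadjusted p under 0.05.

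Matrix genes, which stellate cells and other mesenchymal cells of the liver transcribe, were higher at 72 h. Of 32 collagen and matrix genes, 30 passed the filter and 15 rose, 8 of 15 with both sham pools (median 1.0, against -0.04 for all genes) and 7 in the complete tables only, all 7 of them above the bound. None fell. Col1a1, the main fibrillar collagen chain (chr11:94936224-94953042), had 37.9 and 120 CPM at 72 h, against 7.74 and 7.94 CPM in sham liver (3.33 ± 0.46, adjusted p = 0.00111). Col3a1, which forms fibrils with it, had 98.3 and 216 CPM, against 28.5 and 25.2 CPM (2.55 ± 0.33, adjusted p = 0.00082). Replicate 2 was the higher of the 72 h pools in both genes. Both 72 h pools stood above both sham pools, as in all genes called higher against both. The basement membrane chain Col4a1 had 132 and 185 CPM, against 47.3 and 44.98 CPM (1.78 ± 0.22, adjusted p = 0.00066), the laminin chain Lamc1 rose by 1.56 ± 0.19 (adjusted p = 0.000677) and the matricellular protein Sparc by 1.6 ± 0.18 (adjusted p = 0.00035). Eln, the elastin gene, had 11.6 and 28.6 CPM at 72 h, against 1.25 CPM in sham replicate 1 (3.97 ± 0.62, adjusted p = 0.00539). Exons of Col4a1 and Col4a2 overlap on opposite strands. With both sham pools, 7 to 11 matrix genes passed whichever of the 4 libraries was left out; in the complete tables the 15 that passed became 4 without 72 h replicate 2.

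The summed level of the 32 matrix genes was 656 CPM in sham replicate 1, 1008 and 999 CPM at 48 h, 1153 and 1802 CPM at 72 h, and 1278 and 1149 CPM at 120 h, and 18 of the 30 that passed the filter had their highest mean at 72 h. Of the 72 h pools only replicate 2 exceeded both 120 h pools. In edgeR 1 member was higher than at 48 h, Col14a1 (0.89 ± 0.17, adjusted p = 0.0323), and 0 differed from 120 h; at an unadjusted p under 0.05, 17 were higher than at 48 h, and 7 were higher and 1 lower than at 120 h. DESeq2 called 5 higher than at 48 h and 0 against 120 h, and limma-trend called 1 and 0. Of 12 stellate cell markers 3 rose: the receptor Pdgfrb had 15.4 and 19.6 CPM at 72 h, against 8.12 and 6.93 CPM in sham liver (1.22 ± 0.24, adjusted p = 0.00854), and the contractile genes of activated stellate cells Acta2 (3.35 ± 0.72, adjusted p = 0.0215) and Tagln (1.85 ± 0.44, adjusted p = 0.0339) rose in the complete tables. Ecm1 fell by 0.79 ± 0.15 (adjusted p = 0.00792). With both sham pools Reln (0.52), Rgs5 (-0.32), Lrat (-0.35) and Colec11 (-0.57) did not pass. Against sham replicate 1 alone Cygb (1.25), Ngfr (1.13), Des (0.76) and Hand2 (0.45) did not pass. The cell source of these mRNAs was not tested. The calls of Pdgfrb, Acta2, Tagln and Ecm1 were lost without 72 h replicate 2 (adjusted p = 0.0975, 0.129, 0.178 and 0.0976).

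Several cytoskeletal and membrane-binding genes that fetal and regenerating liver expresses more than resting liver also rose. Of 18 oncofetal and regeneration-linked genes, 9 were tested with both sham pools, where 7 were higher (median 1.20) and none was lower. Of all genes tested this way, 5% were higher and 4.61% lower. Members tested only against sham replicate 1 did not pass, apart from Afp. Those that did not pass changed by 5.38 (H19), 3.42 (Prom1), 1.77 (S100a11), 1.67 (Gpc3), 0.53 (Cd24a) and 0.38 (Igf2bp3). Lgals1, a galactose-binding lectin, had 62.4 and 86.8 CPM at 72 h, against 11.7 and 13.1 CPM in sham liver (2.59 ± 0.27, adjusted p = 0.000296). Anxa2, a calcium-dependent membrane-binding protein, had 32.98 and 50.6 CPM, against 8.49 and 7.43 CPM (2.39 ± 0.26, adjusted p = 0.000296), and the intermediate filament gene Vim had 58.5 and 79.5 CPM, against 16.9 and 16.9 CPM (2.03 ± 0.34, adjusted p = 0.00304). The hepatocyte keratins Krt8 and Krt18 rose by 1.17 ± 0.30 (adjusted p = 0.0305) and 1.16 ± 0.30 (adjusted p = 0.0301). Afp, the fetal counterpart of albumin, had 4.96 and 10.97 CPM at 72 h, against 1.498 CPM in sham replicate 1 (2.38 ± 0.55, adjusted p = 0.0308), and 1 of these values lies below the bound of sham replicate 2. Without 72 h replicate 2, or without either sham pool, 4 of the 9 passed.

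Genes that make fatty acids and triglycerides were higher in regenerating liver at 72 h. Of 22 tested with both sham pools, 9 rose and 2 fell (median 0.57, against -0.04 for all genes). Acly, which makes cytosolic acetyl-CoA from citrate, had 862 and 1492 CPM at 72 h, against 360 and 392 CPM in sham liver (1.65 ± 0.31, adjusted p = 0.00652). Acaca, the acetyl-CoA carboxylase that commits acetyl units to fatty acid synthesis, had 216 and 217 CPM, against 104 and 81.9 CPM (1.22 ± 0.23, adjusted p = 0.00682). Scd1, the stearoyl-CoA desaturase (chr19:44394450-44407709), had 11490 and 14430 CPM, against 5402 and 5360 CPM (1.27 ± 0.33, adjusted p = 0.0307). The pools did not overlap in these 3 genes, as in all genes called with both sham pools. Fasn, the fatty acid synthase, had 756 and 1037 CPM at 72 h, against 386 and 419 CPM in sham liver, and did not pass (1.15 ± 0.47, adjusted p = 0.14). The desaturases Fads1 and Fads2, the elongases Elovl5 and Elovl6, the acyltransferase Gpam and the acetyl-CoA synthetase Acss2 rose by between 0.61 and 1.20. The 2 genes that fell act late in triglyceride synthesis. They were Dgat2 (-0.49 ± 0.13, adjusted p = 0.035) and Lpin1, which had 97.4 and 64.3 CPM at 72 h, against 172 and 456 CPM in the sham pools, themselves far apart (-1.96 ± 0.47, adjusted p = 0.0214). Without 72 h replicate 2, 0 of the 22 were higher at a false discovery rate of 0.05 by edgeR and 9 at an unadjusted p under 0.05; without replicate 1 there were 5, without sham replicate 1 there was 1, and without sham replicate 2 there were 2.

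Cholesterol genes rose in part. Of 25 genes for cholesterol synthesis and uptake, all tested with both sham pools, 6 rose and 1 fell (median 0.44). Lss, the lanosterol synthase, had 105 and 98.2 CPM at 72 h, against 34.96 and 42.6 CPM in sham liver (1.39 ± 0.20, adjusted p = 0.00132). Pmvk, the phosphomevalonate kinase, had 90.6 and 87.8 CPM, against 35.7 and 42.1 CPM (1.20 ± 0.21, adjusted p = 0.00391). Tm7sf2, a sterol reductase, was the member that fell, with 51.5 and 31.9 CPM at 72 h, against 64.8 and 78.2 CPM in sham liver (-0.78 ± 0.19, adjusted p = 0.0249). Replicate 2 was the higher of the 72 h pools in 1 of the 25 genes, and the median difference of replicate 2 from replicate 1 was -0.43 on the log2 scale, the reverse of the mitotic genes. The letters TCACNCCAC, a sterol response element, stood on either strand in 1 of 17 promoters of this list (5.9%), that of Hmgcs1, against 1.1% of tested genes' promoters. Between 1 and 3 members passed when any of the 4 libraries was left out. Lss passed in each of these fits, with adjusted p-values up to 0.0256.

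Against 48 h both lipid programmes were higher at 72 h. Of the cholesterol genes, 8 of 25 were higher than at 48 h and none was lower (median 0.96, against 0.01 for all genes), and of 23 fatty acid and triglyceride genes 6 were higher and none lower (median 0.60), where 0.426% of genes tested were higher. Fdps, the farnesyl diphosphate synthase, had 526 and 359 CPM at 72 h, against 161 and 129 CPM at 48 h (1.61 ± 0.23, adjusted p = 0.0132). Idi1, the isomerase before it, had 187 and 87.1 CPM, against 33.1 and 32.6 CPM at 48 h (2.06 ± 0.38, adjusted p = 0.0295), while its sham levels of 146 and 184 CPM were near those at 72 h (-0.27 ± 0.36, adjusted p = 0.672). Acss2 had 425 and 375 CPM at 72 h, against 103 and 73.9 CPM at 48 h (2.18 ± 0.32, adjusted p = 0.0147), and Scd1 had 11490 and 14430 CPM, against 3770 and 2371 CPM at 48 h (2.07 ± 0.35, adjusted p = 0.0209). The summed level of the fatty acid and triglyceride genes was 10340 and 10910 CPM in sham liver, where sham replicate 2 lacks 1 of them, 4452 and 5009 CPM at 24 h, 9318 and 6165 CPM at 48 h, 18430 and 22640 CPM at 72 h, and 11910 and 12520 CPM at 120 h. The counts against 48 h depend on the pools: 12 cholesterol genes were higher without 72 h replicate 2, 3 without 48 h replicate 1, and 0 with 72 h replicate 1 or 48 h replicate 2 left out (14 and 16 at an unadjusted p under 0.05). For the fatty acid genes they were 2, 4, 1 and 0 in that order.

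**Figure D2:**
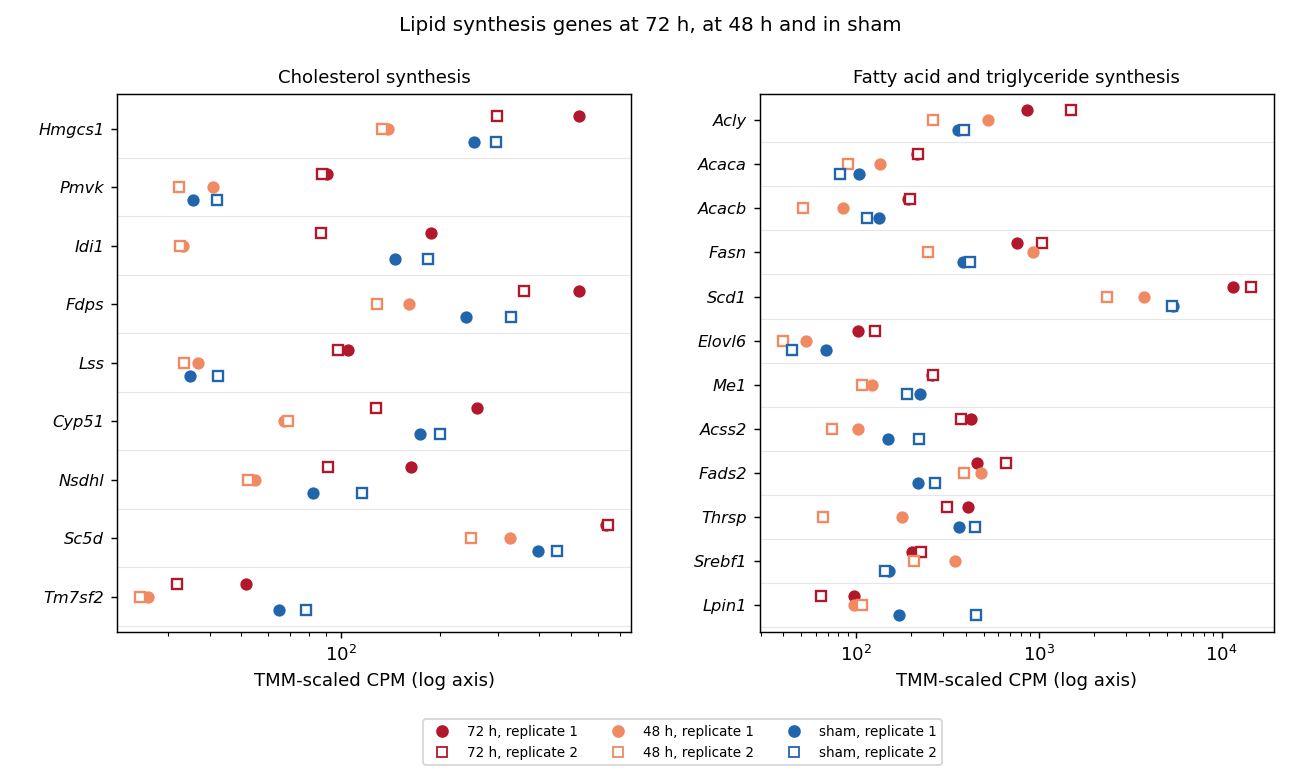
Levels of lipid synthesis genes in each pool, in TMM-scaled CPM on a log axis, at 72 h (red), at 48 h (orange) and in sham liver (blue), with filled circles for replicate 1 and open squares for replicate 2. For Scd1 the 72 h pools at 11490 and 14430 CPM lie to the right of both other groups. For Idi1 the 48 h pools at 33.1 and 32.6 CPM lie left of the 72 h and sham pools, which overlap.

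Many of the largest falls were in the major urinary protein (Mup) genes on chromosome 4, which encode pheromone-binding proteins that the liver secretes, in male mice above all. All 15 Mup genes tested with both sham pools fell, by between 2.00 and 5.86 on the log2 scale (median -4.07). Together they held 4891 and 4697 CPM at 72 h, against 28850 and 27950 CPM in sham liver, or 0.514% and 0.537% of reads against 2.97% and 2.77%. Mup17 (chr4:61591929-61595865) had 12.9 and 15.2 CPM at 72 h, against 772 and 864 CPM in sham liver (-5.86 ± 0.86, adjusted p = 0.00174). Mup11 had 44.7 and 31.0 CPM, against 1118 and 1220 CPM (-4.95 ± 0.65, adjusted p = 0.000896), and Mup3 had 2169 and 1251 CPM, against 9538 and 9388 CPM (-2.47 ± 0.31, adjusted p = 0.000799). Many of the genes are near-identical copies, so how the unique reads divide among them is uncertain, and the sum is the firmer measure. Mup17, Mup11 and Mup3 passed without any of the 4 libraries.

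Other genes that the male pattern of growth hormone pulses is known to maintain fell with them. Of 22 male-biased liver genes, 7 of them Mup genes, all were tested with both sham pools, 19 fell and none rose (median -2.46, where 4.61% of all genes fell). Serpina12, which encodes the adipokine vaspin, had 7.44 and 3.79 CPM at 72 h, against 58.8 and 36.8 CPM in sham liver (-3.09 ± 0.42, adjusted p = 0.00108). Elovl3, a very long chain elongase, had 158 and 54.8 CPM, against 698 and 502 CPM (-2.50 ± 0.45, adjusted p = 0.0051). Cyp7b1, an oxysterol hydroxylase of bile acid synthesis, had 156 and 45.8 CPM, against 642 and 464 CPM (-2.46 ± 0.54, adjusted p = 0.0134). The organic anion transporter Slco1a1 had 102 and 39.0 CPM, against 425 and 349 CPM (-2.46 ± 0.55, adjusted p = 0.0147). In these genes 72 h replicate 2 was lower than replicate 1. Both 72 h pools lay below both sham pools, as in all genes called lower against both. Moxd1, a monooxygenase-like gene, was left with 3 and 1 reads in the 72 h pools, against 216 and 61 reads in the sham pools. With 72 h replicate 2 left out, 6 of the 22 passed and 19 had an unadjusted p under 0.05; without sham replicate 1, 12 passed. The growth hormone receptor gene Ghr had 306 and 260 CPM at 72 h, against 585 and 516 CPM in sham liver (-0.96 ± 0.25, adjusted p = 0.0289), a call lost without either 72 h pool or either sham pool (adjusted p up to 0.229).

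Female-biased genes gave no call: of 18 genes, 13 were tested in the complete tables and 4 with both sham pools, and 0 passed in edgeR. There were 3 higher and 2 lower in the complete tables at an unadjusted p under 0.05, and DESeq2 and limma-trend each called 3 higher and 0 lower there. With both sham pools 0 were higher and 2 lower at an unadjusted p under 0.05, and limma-trend called 1 lower. Cyp2a4, a female-predominant steroid hydroxylase, had 15.1 and 55.7 CPM at 72 h, against 0.75 CPM in sham replicate 1, which is 6 reads (5.51 ± 1.62, adjusted p = 0.0783). The male-biased genes summed to 16610 and 8111 CPM at 72 h, against 14470 and 11520 CPM at 48 h, and 0 of 22 members differed between these times in edgeR, DESeq2 or limma-trend, with 0 lower and 1 higher at an unadjusted p under 0.05 in each.

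**Figure D3:**
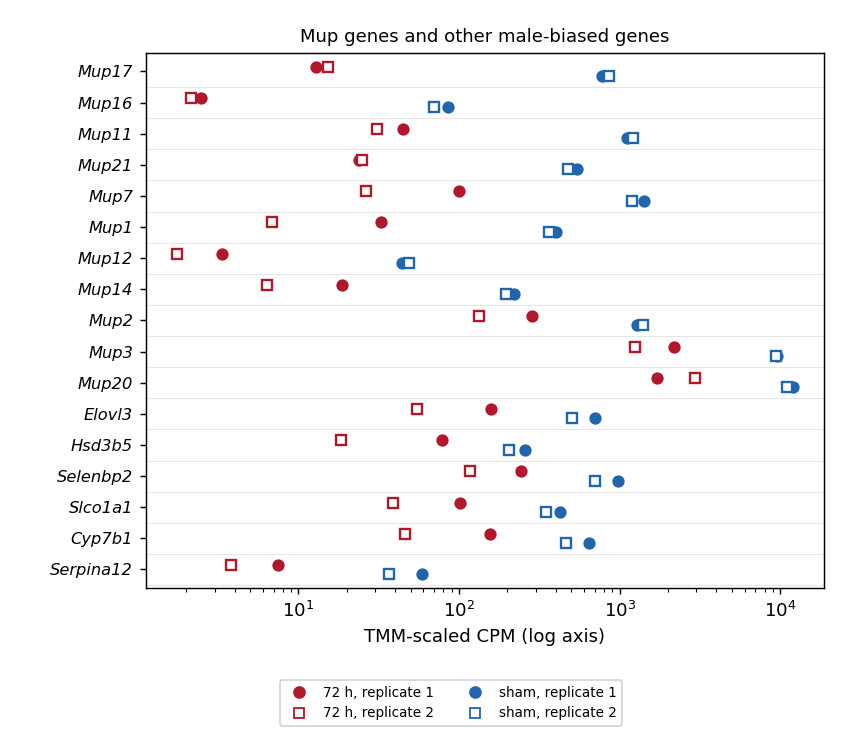
Levels of Mup genes and other male-biased liver genes in each pool, in TMM-scaled CPM on a log axis. Red marks are the 72 h pools and blue marks the sham pools, with filled circles for replicate 1 and open squares for replicate 2. Both 72 h pools lie left of both sham pools for every gene drawn, with Mup17 at 12.9 and 15.2 CPM against 772 and 864 CPM.

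Many drug- and steroid-metabolising enzymes were lower at 72 h. Of 37 cytochrome P450 genes of families 1 to 3, 29 were tested with both sham pools, 16 fell and 1 rose (median -0.81). Cyp2d10 had 215 and 185 CPM at 72 h, against 433 and 448 CPM in sham liver (-1.14 ± 0.14, adjusted p = 0.000575), and Cyp2c37 had 64.9 and 43.2 CPM, against 161 and 181 CPM (-1.66 ± 0.25, adjusted p = 0.00176). The ethanol- and paracetamol-oxidising Cyp2e1 had 4333 and 3035 CPM, against 5951 and 7275 CPM (-0.84 ± 0.20, adjusted p = 0.0183). With both sham pools Cyp2c55 alone rose, with 49.8 and 61.6 CPM at 72 h, against 21.7 and 15.5 CPM in sham liver (1.58 ± 0.31, edgeR adjusted p = 0.00782). It was also higher than at 120 h (1.42 ± 0.29, edgeR adjusted p = 0.039). Among family 2 genes scarce in sham liver, Cyp2b9 and Cyp2a4 had larger changes against sham replicate 1 (6.23 and 5.51), from 1 and 6 reads there. Neither passed in edgeR. Members of the Cyp2c and Cyp2d clusters share sequence, so reads may be split unevenly between neighbours. The count of 16 became 3 without 72 h replicate 2, 5 without sham replicate 1 and 7 without sham replicate 2; Cyp2d10 and Cyp2c37 passed in each of these fits.

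Conjugating enzymes moved in both directions. Of 36 genes 33 were tested with both sham pools, where 5 rose and 9 fell, against 5% and 4.61% of all genes. All 5 that rose were glutathione S-transferases: Gstm3 had 462 and 1004 CPM at 72 h, against 67.5 and 69.0 CPM in sham liver (3.42 ± 0.69, adjusted p = 0.00908), Gstm2 had 258 and 364 CPM, against 73.0 and 75.5 CPM (2.06 ± 0.25, adjusted p = 0.000648), and Gsta4, Gstt2 and Gstt3 rose by 1.38, 0.94 and 1.45. Of the 9 that fell, 7 were glucuronosyltransferases, among them Ugt3a2, with 199 and 120 CPM at 72 h, against 359 and 340 CPM in sham liver (-1.13 ± 0.18, adjusted p = 0.00231), and Ugt2b5, with 355 and 263 CPM, against 771 and 743 CPM (-1.29 ± 0.22, adjusted p = 0.00349). The sulfotransferase Sult2a8 (-2.59) and Gstp1 (-0.55) were the others. Gsta1 rose in the complete tables, but from 1 read in sham replicate 1, and its 72 h levels of 4.96 and 8.51 CPM do not both pass the bound. Gstm3 lost its call with 72 h replicate 2, sham replicate 1 or sham replicate 2 left out (adjusted p = 0.084, 0.087 and 0.0815), while Gstm2 passed in every one of these fits. Of 15 genes downstream of the antioxidant factor NRF2, 2 rose, the pentose phosphate enzymes Pgd (1.07 ± 0.24, adjusted p = 0.0157) and G6pdx (1.44 ± 0.39, adjusted p = 0.0359), and none fell.

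Bile acid genes were lower in part. Of 21 tested with both sham pools 6 fell and none rose (median -0.39). Besides Cyp7b1 and Slco1a1, these were the side-chain hydroxylase Cyp27a1 (-0.94 ± 0.21, adjusted p = 0.0146), the steroid dehydrogenase Hsd3b7 (-0.59), and the enzymes that activate bile acids and join them to amino acids, Slc27a5 (-0.68) and Baat, which had 154 and 118 CPM at 72 h, against 285 and 250 CPM in sham liver (-0.98 ± 0.15, adjusted p = 0.00212). Cyp7a1, which opens the classic pathway at its slowest step, had 190 and 27.8 CPM at 72 h, against 146 and 85.3 CPM in sham liver (-0.09 ± 0.64, adjusted p = 0.948), so its pools overlap. Between 1 and 9 of the 21 fell when a library was left out, 1 without 72 h replicate 2 and 2 without either sham pool.

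Glucose and nitrogen metabolism changed at single steps. Of 10 gluconeogenesis genes tested with both sham pools 3 fell and none rose. Pck1, the cytosolic PEP carboxykinase, had 1160 and 839 CPM at 72 h, against 2073 and 2561 CPM in sham liver (-1.21 ± 0.22, adjusted p = 0.00503), and G6pc, the catalytic subunit of glucose-6-phosphatase, had 349 and 264 CPM, against 739 and 554 CPM (-1.08 ± 0.30, adjusted p = 0.0369). Slc37a4, its transporter, fell by 0.72 ± 0.19 (adjusted p = 0.0339). Of 19 genes for glycolysis and glucose use 3 rose, among them the pyruvate kinase of growing tissues Pkm, with 45.6 and 66.4 CPM at 72 h, against 20.1 and 21.5 CPM in sham liver (1.43 ± 0.32, adjusted p = 0.0157). In the urea cycle, Cps1, its entry enzyme, had 5563 and 6651 CPM at 72 h, against 3700 and 3844 CPM in sham liver (0.70 ± 0.17, adjusted p = 0.0248), and Ass1 had 2725 and 2658 CPM, against 1288 and 1835 CPM (0.79 ± 0.18, adjusted p = 0.0186). Tdo2, which opens tryptophan breakdown, had 438 and 325 CPM, against 981 and 1103 CPM (-1.45 ± 0.27, adjusted p = 0.00652). In all, 4 of 32 urea cycle and amino acid genes rose and 1 fell, against 5% and 4.61% of all genes. Pck2, the mitochondrial PEP carboxykinase, rose in the complete tables, with 5.60 and 9.23 CPM at 72 h, against 1.498 CPM in sham replicate 1 (2.28 ± 0.46, adjusted p = 0.0172), although 1 of its 72 h values lies below the bound of sham replicate 2. The calls of Pck1, G6pc, Slc37a4, Pkm, Cps1, Ass1 and Tdo2 were each lost without 72 h replicate 2 (adjusted p between 0.0924 and 0.36).

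Secreted liver proteins were lower for complement and clotting and mixed for lipoproteins. Of 32 coagulation and complement genes 12 fell and none rose (median -0.48), where 4.61% of all genes fell and 5% rose. C2 had 91.5 and 87.6 CPM at 72 h, against 167 and 161 CPM in sham liver (-0.87 ± 0.13, adjusted p = 0.00203), and C8b, a chain of the membrane attack complex, had 472 and 314 CPM, against 928 and 819 CPM (-1.15 ± 0.21, adjusted p = 0.0052). The clotting factors F2 and F9 fell by 0.54 and 0.98. Exons of C2 overlap those of Zbtb12 on the opposite strand. Without 72 h replicate 2, 0 of the 32 passed in edgeR and 13 were lower at an unadjusted p under 0.05; 4 passed without sham replicate 1 and 6 without sham replicate 2. Of 26 acute phase genes 3 fell and none rose: Serpina3k had 9377 and 5200 CPM at 72 h, against 18890 and 19270 CPM in sham liver (-1.39 ± 0.25, adjusted p = 0.00486), and Crp (-1.08) and Saa4 (-1.0) fell too. Apoc2, the cofactor of lipoprotein lipase, rose, with 430 and 674 CPM at 72 h, against 160 and 186 CPM in sham liver (1.67 ± 0.18, adjusted p = 0.000296), and passed without any of the 4 libraries. The carriers Ahsg (0.66) and Serpina6 (0.61) rose too, while Apoa5 (-0.82 ± 0.17, adjusted p = 0.0125) and Apoa2 (-0.63 ± 0.16, adjusted p = 0.0268) fell.

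Genes of respiration and hepatocyte identity gave no call. Of 38 genes for oxidative phosphorylation 0 passed in edgeR, DESeq2 or limma-trend, with 1 higher and 2 lower at an unadjusted p under 0.05, and their median was -0.02. Of 20 hepatocyte transcription factors 0 passed in any of these tools, with 0 higher and 1 lower at an unadjusted p under 0.05. Hnf4a, the main factor of hepatocyte identity, had 735 and 781 CPM at 72 h, against 837 and 1021 CPM in sham liver (-0.29 ± 0.15, adjusted p = 0.222). Cytosolic ribosomal protein genes had a median change of 0.21; 7 of 71 rose and none fell in edgeR, with 23 higher and 1 lower at an unadjusted p under 0.05, and DESeq2 called 16 higher. Among them Rplp2 had 76.5 and 78.4 CPM, against 46.7 and 47.9 CPM in sham liver (0.71 ± 0.17, adjusted p = 0.0234). Of 28 fatty acid oxidation genes 2 rose and none fell in edgeR (median 0.23), where 5% of all genes rose and 4.61% fell. At an unadjusted p under 0.05 in edgeR 12 were higher and 1 lower, and DESeq2 called 7 higher. The edgeR calls were the ketogenic enzyme Bdh1 (0.58 ± 0.13, adjusted p = 0.017) and the fatty acid hydroxylase Cyp4a14, the largest called rise with both sham pools, at 174 and 218 CPM at 72 h, against 6.74 and 16.1 CPM in sham liver (4.10 ± 0.96, adjusted p = 0.0192). Cyp4a14 lost its call without 72 h replicate 2 and without either sham pool (adjusted p = 0.0924, 0.166 and 0.0876), and its sequence is close to that of Cyp4a10, which had 150 and 188 CPM, against 20.7 and 66.9 CPM, and did not pass (adjusted p = 0.107). Slc16a5, a monocarboxylate transporter family member, had 25.8 and 28.3 CPM at 72 h, against 1.62 CPM in sham replicate 1 (4.03 ± 0.47, adjusted p = 0.00299), and passed whichever 72 h pool was left out.

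**Figure D4:**
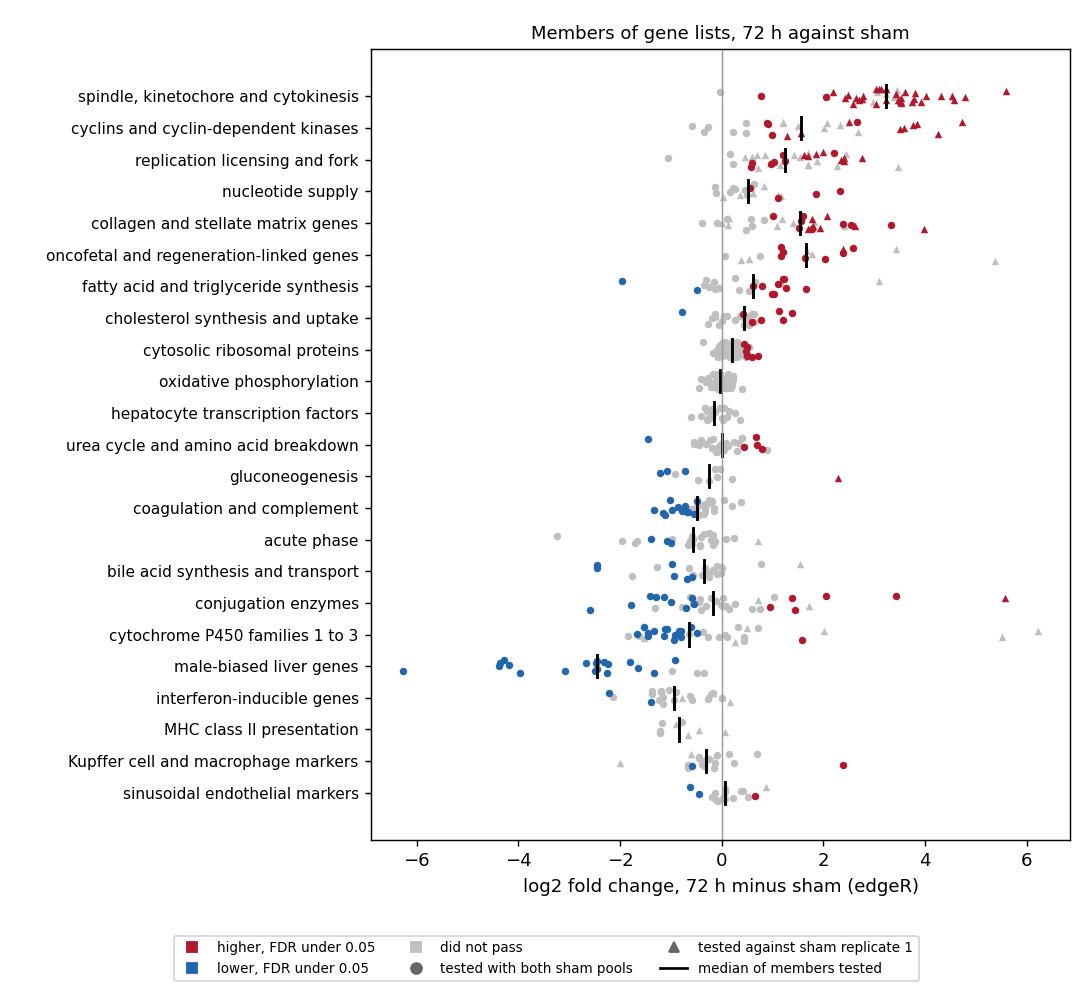
Log2 fold change at 72 h against sham for each tested member of 23 gene lists. Red points passed as higher and blue points as lower at a false discovery rate of 0.05, grey points did not pass, circles were tested with both sham pools and triangles against sham replicate 1, and the black bar is the median of the members. The spindle list lies to the right, with 34 of 41 passing as higher, the male-biased list to the left, with 19 of 22 passing as lower, and the 38 oxidative phosphorylation genes around 0 with none passing.

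Of 17 pericentral genes tested with both sham pools 5 fell and 1 rose (median -0.17), and of 15 periportal genes 3 fell and 3 rose, where 4.61% of all genes fell and 5% rose. In the complete tables, 2 of 18 pericentral genes fell and 1 rose. Glul, the glutamine synthetase of the last hepatocytes around the central vein, had 839 and 698 CPM at 72 h, against 1149 and 1333 CPM in sham liver (-0.69 ± 0.17, adjusted p = 0.0224). The periportal Aldh1b1, a mitochondrial aldehyde dehydrogenase, had 145 and 140 CPM, against 49.2 and 58.8 CPM (1.40 ± 0.24, adjusted p = 0.00376), while Pigr, the receptor that carries IgA into bile, had 702 and 597 CPM, against 1213 and 1385 CPM (-1.0 ± 0.15, adjusted p = 0.0019). Of 14 immediate early genes, which are known to rise within hours of hepatectomy, 6 fell and 1 rose with both sham pools. In the complete tables, 1 of 20 fell and 0 rose in edgeR, with 8 lower and 4 higher at an unadjusted p under 0.05; DESeq2 and limma-trend also called 1 lower and 0 higher. Zfp36, an mRNA-destabilising protein, had 43.2 and 50.1 CPM at 72 h, against 123 and 123 CPM in sham liver (-1.40 ± 0.22, adjusted p = 0.00204). Fos had 1.62 and 3.28 CPM, against 8.61 and 18.8 CPM (-2.47 ± 0.48, adjusted p = 0.00814), and Jun had 17.4 and 16.9 CPM, against 24.3 and 28.1 CPM (-0.61 ± 0.15, adjusted p = 0.0202). Jun was also lower than at 48 h, where it had 35.3 and 32.5 CPM (-0.99 ± 0.16, adjusted p = 0.0154). The calls of Fos and Jun against sham were lost when single libraries were left out, with adjusted p-values up to 0.0889 and 0.191, and Zfp36 passed in every such fit.

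Among markers of the other cells of the liver, some lists gave calls and others gave none. Of all genes tested with both sham pools, 5% were higher and 4.61% lower. Of 16 sinusoidal endothelial markers 15 were tested with both sham pools: the junction gene Cdh5 rose (0.66 ± 0.17, adjusted p = 0.0307), the lectin Clec4g (-0.62 ± 0.15, adjusted p = 0.0219) and the Fc receptor Fcgr2b (-0.44 ± 0.13, adjusted p = 0.0438) fell, and the summed level was 641 and 700 CPM at 72 h, against 645 CPM in sham replicate 1. Of 16 Kupffer cell and macrophage markers tested with both sham pools 1 rose and 1 fell, near the shares of all genes. Marco, a scavenger receptor, had 98.2 and 94.6 CPM at 72 h, against 22.2 and 14.7 CPM in sham liver (2.38 ± 0.59, adjusted p = 0.0248), while Vsig4, a complement receptor of resident Kupffer cells, had 31.5 and 35.1 CPM, against 52.4 and 46.7 CPM (-0.58 ± 0.16, adjusted p = 0.0425). Both calls were lost when any of the 4 libraries was left out, with adjusted p-values up to 0.163 and 0.236. Neutrophil markers summed to 7.22 and 14.1 CPM at 72 h, against 14.2 CPM in sham replicate 1, and lymphocyte and NK markers to 13.6 and 5.95 CPM, against 13.9 CPM; 0 of 9 and 0 of 8 tested members passed in edgeR, DESeq2 or limma-trend, with 0 and 1 at an unadjusted p under 0.05. Cholangiocyte markers summed to 151 and 228 CPM, against 149 CPM in sham replicate 1. Of these, Aqp1 alone gave 80.3 and 89.1 CPM at 72 h, against 80.3 CPM in that sham pool. The duct keratins Krt7 and Krt19 had 1.83 and 2.56 CPM, and 2.91 and 4.41 CPM, at 72 h, against 0.25 and 0.499 CPM in sham replicate 1, which are 2 and 4 reads (3.05 ± 0.79, adjusted p = 0.0501, and 2.82 ± 0.83, adjusted p = 0.0782). In the complete tables, 0 of 8 cholangiocyte markers passed in edgeR or DESeq2, with 2 higher at an unadjusted p under 0.05 in each, and limma-trend called 1 higher. Cftr had no read in the 72 h pools or in sham replicate 1. The part of neutrophils, lymphocytes and bile duct cells in the other results was not tested.

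Some immune genes were lower at 72 h than in sham liver, and some were lower than at 120 h. With both sham pools, interferon-inducible genes had a median of -1.15 against sham, with 2 of 18 lower (Ifit1, -2.22 ± 0.55, adjusted p = 0.0249, and Rsad2, -1.39 ± 0.27, adjusted p = 0.00739) and none higher. Against 120 h, 6 of 25 interferon genes, 3 of 8 MHC class II genes and 6 of 19 Kupffer cell and macrophage markers were lower at 72 h, where 0.393% of genes tested were. H2-Aa, an MHC class II chain, had 8.73 and 8.92 CPM at 72 h, against 24.7 and 68.3 CPM at 120 h (-2.43 ± 0.45, adjusted p = 0.0309). Clec4f, the Kupffer cell lectin, had 97.0 and 106 CPM, against 178.5 and 202 CPM (-0.94 ± 0.16, adjusted p = 0.0309), and C1qa, a complement chain made by macrophages, had 44.5 and 47.0 CPM, against 98.8 and 139 CPM (-1.41 ± 0.28, adjusted p = 0.0349). The 120 h pools were themselves unlike, with interferon sums of 1137 and 3249 CPM, against which the 72 h pools held 623 and 542 CPM. Without 120 h replicate 2 or without 72 h replicate 2, 0 of the interferon genes and 0 of the macrophage markers were lower in edgeR (12 and 20 of the interferon genes, and 11 and 11 of the macrophage markers, at an unadjusted p under 0.05). With scaling by library totals alone, 1 interferon gene and 1 macrophage marker were lower.

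**Figure D5:**
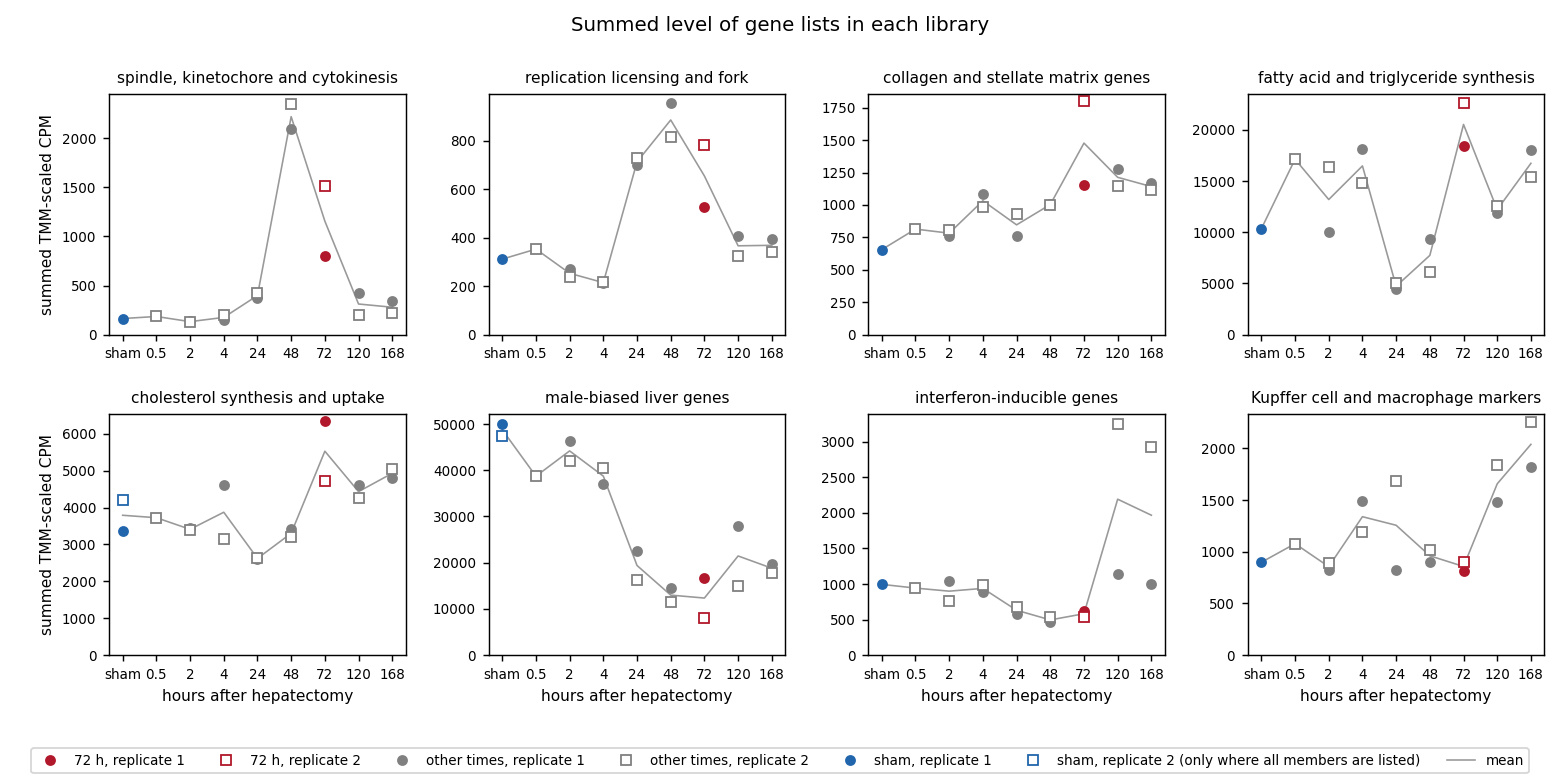
Summed level of 8 gene lists in each library, in TMM-scaled CPM, with sham at the left and hours after hepatectomy along the axis. Circles are replicate 1, squares replicate 2, the line joins the means, and sham replicate 2 is drawn only where all members are listed in it. The mitotic sum is highest at 48 h and stands at 803 and 1510 CPM at 72 h, the matrix and fatty acid sums are highest at 72 h, at 1802 and 22640 CPM in replicate 2, and the male-biased sum at 72 h, 16610 and 8111 CPM, lies far below the sham pools at 50030 and 47500 CPM.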

How the data were processed

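Poly(A)-enriched liver RNA, pooled from 3 mice per library, was sequenced by the authors in 2 pools for each of 9 groups, per the labels' protocols. The deposited tables give counts of uniquely mapped reads per gene and RPKM values that the authors derived from these counts, per the file headers. RPKM served only to check that relation. Reads were placed on mm10, according to the submitters' processing notes, and the sources used here give no aligner, counter or strand setting. Libraries held 7.78 to 9.16 M (mega) reads. The tables of sham replicate 2 and of 0.5 h replicate 1 end at counts of 52 and 157, so 1.135% and 4.729% of their reads fall on unlisted genes, and an unlisted gene was treated as unknown.

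For the tests, edgeR 4.0.16 (under R 4.3.3) was run on the counts (its quasi-likelihood test, TMM scaling, Benjamini-Hochberg adjustment, false discovery rate 0.05), with all groups sharing the estimate of spread. The first test used 17 libraries and 8026 genes. The second used 16 complete tables, without sham replicate 2, and 12199 genes with at least 10 reads in a library of median size in 2 libraries. CPM values were divided by TMM factors. Alternatives were DESeq2 1.42.0, limma-trend (limma 3.58.1), other scalings, no filter, the groups compared alone, a replicate block and each library left out. On simulated data the first test recovered 81% of genes changed 2-fold and 100% of genes changed 4-fold, the second 22% and 86%. Every simulated gene had the same dispersion (0.0213 in the first, 0.0277 in the second), and no pool was made unlike the other of its group. These shares therefore do not describe genes with a larger spread or the unlike 72 h pools.

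Of 17180 genes, 17130 matched RefSeq GRCm38.p6, from which promoters were read. The gene lists and named genes were chosen with earlier results of these data known. The genes named were the 8 largest rises and falls with both sham pools and the 8 largest rises in the complete tables alone. These had a mean of at least 10 CPM and pools on one side of sham. No gene was named as a fall in the complete tables alone. Up to 4 members of each list were added by smallest p, and further members were named after their values were seen. Values of some members of the lists are not reported here.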

Additional observations from a re-analysis of the deposited data

Results flagged for a closer look

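Cell division genes were higher at 72 h than at 120 h, the difference between these times being tested directly with edgeR. Against 120 h the changes on the log2 scale were 2.45 for Prc1, 2.32 for Tpx2, 2.47 for Cdc20, 2.31 for Plk1, 2.32 for Ccnb2, 2.25 for Cdca3 and 1.86 for Kif22. Cdc20 had 46.8 and 89.1 CPM at 72 h, against 20.3 and 3.69 CPM at 120 h (adjusted p = 0.0394), and Prc1 had 31.8 and 53.2 CPM, against 10.4 and 4.84 CPM (adjusted p = 0.0309). Of the 120 h pools replicate 1 was the higher in both genes.

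Stmn1, Ccnd1 and Lgals1 were also higher at 72 h than at 120 h, by 1.96, 1.18 and 1.14. Lgals1 had 62.4 and 86.8 CPM at 72 h, against 37.2 and 29.0 CPM at 120 h (adjusted p = 0.0433). Without 72 h replicate 2 or without 120 h replicate 2, 0 genes passed in this comparison (edgeR; 388 and 543 genes were higher at an unadjusted p under 0.05).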

How the results depend on the processing

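With both sham pools, 642 genes were higher and 231 lower with scaling by totals only, and the other scalings, tools and fits stayed within 1.5 times the reported counts. In the complete tables the counts were 541 and 373 with no filter on low counts, 487 and 254 with sham replicate 2 added and its unlisted genes taken as 0 (where Csf3r and Cxcr2, neither of which passed, turned to 0.33 and 0.72), and 98 lower genes with the compared groups alone. Against 48 h they were 133 and 108 with DESeq2, 262 and 232 with no filter and 10 and 3 with the compared groups alone; scaling by totals left 3 fatty acid genes higher. Against 120 h they were 165 and 141 with DESeq2, 320 and 330 with no filter, 0 and 0 with the compared groups alone (887 and 838 at an unadjusted p under 0.05), 41 higher with limma-trend, and 23 lower, with 1 interferon gene and 1 macrophage marker, by totals alone. Of 133 called genes that the text could name, 1 was lost with DESeq2 and 1 with limma-trend. Scaling by totals alone lost 9, and the compared groups alone lost 11. More of these calls were lost when any 72 h or sham pool was left out, and most of them without 72 h replicate 2. None reversed, and the causes were not tested. Leaving out 1 library at a time gave 81 to 329 higher and 50 to 309 lower genes with both sham pools, 37 to 361 and 11 to 230 in the complete tables, 0 to 60 and 0 to 23 against 48 h, and 0 to 193 and 0 to 90 against 120 h. By list, the members higher than sham numbered 1 to 3 for cholesterol, 0 to 5 for fatty acids, 4 to 8 for oncofetal genes, 7 to 11 for matrix genes with both sham pools and 4 to 16 in the complete tables, 1 to 14 for replication and 7 to 38 for mitosis. The members lower than sham numbered 6 to 20 for male-biased genes, 3 to 14 for P450 genes, 0 to 11 for coagulation and complement and 1 to 9 for bile acids. Against 48 h the range was 0 to 12 for cholesterol and 0 to 4 for fatty acids. Against 120 h it was 0 to 31 for mitosis, 0 to 10 for interferon genes and 0 to 6 for macrophage markers. Spp1, which did not pass, ranged from -0.45 (without 72 h replicate 2) to 1.41 (without replicate 1, where it passed), and Mt1, which did not pass, from -1.36 (without sham replicate 1) to 1.3 (without sham replicate 2). Taken over all genes, pools of the same replicate number did not deviate together (correlations of -0.069 with sham, 0.036 with 48 h and 0.01 with 120 h). Whether a smaller set of genes shares a batch by replicate number was not tested. A replicate block gave 404 and 405 genes with both sham pools, 253 and 133 in the complete tables, 60 and 39 against 48 h and 99 and 76 against 120 h. Depth limits the genes scarce in sham liver: 3 reads are 0.375 CPM in sham replicate 1.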

Other observations

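Some groups of genes not described above gave calls and others gave none. Of all genes tested with both sham pools, 5% were higher and 4.61% lower. Core clock genes had a median change of -0.12 on the log2 scale at 72 h against sham, and 0 of 15 passed in edgeR, DESeq2 or limma-trend, with 0 higher and 2 lower at an unadjusted p under 0.05. Of 17 growth factor and receptor genes 1 passed, Pdgfrb. Of 5 erythroid genes 2 fell, the heme synthesis gene Alas2 (-1.0, adjusted p = 0.0363) and the tetraspanin Tspan33 (-0.83, adjusted p = 0.0255). Of 12 glycogen metabolism genes tested with both sham pools 2 fell and none rose: Ppp1r3b, which targets protein phosphatase to glycogen in liver (-1.26, adjusted p = 0.0124), and the phosphorylase kinase subunit Phkg2 (-0.92, adjusted p = 0.047). Pygb, the brain form of glycogen phosphorylase, rose in the complete tables (1.92, adjusted p = 0.0101), as 1 of 14 tested there.

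The sham pools differed from each other in some genes. The metallothionein Mt1 had 160 and 144.5 CPM at 72 h, against 61.9 and 391 CPM in sham replicates 1 and 2, and the acute phase gene Saa3 had 3.88 and 6.56 CPM at 72 h, against 12.6 and 86.6 CPM. Over the genes tested, the SD of the log2 difference between the pools of a group was 0.329 at 72 h and 0.271 in sham. Saa3 was lower than at 48 h, where its pools had 27.1 and 471 CPM (-5.58, adjusted p = 0.0441).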
